A study of Mus musculus with 24 samples.

Results

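The 10 genes described here are 9 claudins (Cldn1, Cldn3, Cldn4, Cldn6, Cldn7, Cldn8, Cldn10, Cldn12 and Cldn23) and occludin (Ocln), followed through mouse lacrimal gland stem cell (LGSC) spheres and the embryonic and adult lacrimal gland (LG). They were taken as a list of tight junction genes by a rule that did not use their values, although earlier results of these data were known. They were matched by Ensembl identifier in tables of 63862 features. A mean of 0.5 FPKM (fragments scaled to transcript length and to a size set for each library) over the 20 passage 2 and gland libraries was reached by 7 of the 10, and these were tested. Cldn4, Cldn6 and Ocln did not reach that level and are given by value.

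Claudins are small membrane proteins with 4 transmembrane segments that join neighbouring epithelial cells into tight junction strands. Some of them seal the space between cells, while others form paracellular channels for chosen ions, so that the mix of claudins sets what passes between the cells. Occludin belongs to another family of junction proteins and lies in the same strands. In exocrine glands such as the LG, the junctions of acinar and ductal cells keep the secreted fluid apart from the tissue and let part of its salt and water through.

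All samples came from C57BL/6 mice. LGSCs were obtained from dissociated LGs of mice aged 6 to 8 weeks and grew from single cells as spheres in a 1:1 mix of Matrigel and a serum-free medium with EGF, FGF10, Wnt3A and the kinase inhibitor Y-27632. Passage 2 spheres were sampled at day 5 (2 libraries) and at days 7, 10 and 14 (3 libraries each), and passage 10 spheres at day 7 (1 library). E17.5, E19.5 and adult LG had 3 libraries each, where E gives the embryonic day, and the age of the adult glands was not given in the labels. The labels do not say whether replicates came from separate animals or cultures, so p-values measure the spread between these samples, which may be technical.

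The reads behind the FPKM could be recovered and totalled 6434281 to 9257025 per library, or 25172949 for passage 10. Adult LG libraries 1 and 2 stood apart: 10 genes took 60.4% and 59.6% of their reads, against 31.3% in adult library 3 and at most 8.07% elsewhere. The 4 sphere libraries numbered 2 also stood apart from the 7 numbered 1 or 3. For 1661 of 15584 genes (10.7%) these 2 sets of libraries did not overlap, with Krt18, a keratin of simple epithelia, at 130 to 176 FPKM against 689 to 1734. Where leaving out either set changed the result for a member, the value without it is given. Without adult libraries 1 and 2 only adult library 3 is left, so that fit holds no spread of the adult glands. For that setting the size of the difference is given alone.

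The epithelial marker list (14 genes) summed to 978 to 3334 FPKM in the spheres, with the E-cadherin gene Cdh1 at 388 to 916 FPKM. Its defining members Krt8 and Cdh3 were listed at 0 in all 20 libraries. The mesenchymal list (9 genes) summed to at most 3.53 FPKM in the spheres, 4908 to 5768 at E17.5, 4886 to 5860 at E19.5 and 171 to 345 in adult LG. The whole gland therefore held stromal transcripts in amounts that differed with age, and in bulk RNA fewer cells of a type and less RNA per cell cannot be told apart.

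Promoter windows are shown for 3 genes on which the results turn. Cldn3 was the most abundant member in every gland library, Cldn4 its neighbour with the opposite pattern in passage 10 spheres, and Cldn10 the member that differed most between gland stages. Positions and sequences are from RefSeq and GENCODE M21 on GRCm38, whereas the submitters' processing notes name NCBIM37, so they locate the genes and were not read from the deposited tables. Each window runs from 250 bases before to 50 bases after an annotated start. Capitals mark CAGGTG, the E-box core bound by Snail family repressors, and GGGCGG, the GC box, each searched on both strands. No marked matches overlap.
Cldn3, chr5:134985964-134986263, plus strand: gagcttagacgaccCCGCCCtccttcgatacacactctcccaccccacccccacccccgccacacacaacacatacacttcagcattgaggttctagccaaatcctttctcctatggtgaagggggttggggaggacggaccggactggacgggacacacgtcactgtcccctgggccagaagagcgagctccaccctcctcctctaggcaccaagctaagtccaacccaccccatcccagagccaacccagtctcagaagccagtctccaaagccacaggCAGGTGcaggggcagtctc
Cldn4, chr5:134946885-134947184, minus strand: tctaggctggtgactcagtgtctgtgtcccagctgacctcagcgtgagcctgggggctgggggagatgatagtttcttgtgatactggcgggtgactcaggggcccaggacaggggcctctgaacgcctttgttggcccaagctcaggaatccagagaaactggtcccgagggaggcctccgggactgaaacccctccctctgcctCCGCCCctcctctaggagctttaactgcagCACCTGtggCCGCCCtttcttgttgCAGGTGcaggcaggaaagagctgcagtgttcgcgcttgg
Cldn10, first start, chr14:118787621-118787920, plus strand: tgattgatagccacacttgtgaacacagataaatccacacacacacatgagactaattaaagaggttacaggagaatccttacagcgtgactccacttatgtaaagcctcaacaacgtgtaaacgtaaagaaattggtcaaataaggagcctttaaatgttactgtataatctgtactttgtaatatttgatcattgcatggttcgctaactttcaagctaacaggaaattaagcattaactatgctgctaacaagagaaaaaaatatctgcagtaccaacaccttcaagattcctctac
Cldn10, second start, chr14:118854700-118854999, plus strand: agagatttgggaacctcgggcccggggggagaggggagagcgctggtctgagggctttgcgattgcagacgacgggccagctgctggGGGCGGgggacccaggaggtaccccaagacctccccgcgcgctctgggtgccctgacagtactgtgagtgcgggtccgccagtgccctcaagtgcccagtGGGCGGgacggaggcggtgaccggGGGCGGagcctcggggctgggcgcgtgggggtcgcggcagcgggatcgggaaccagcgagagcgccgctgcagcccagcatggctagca
Cldn3 (chr5:134986214-134987472) and Cldn4 (chr5:134945119-134946934) face away from each other with 39279 bases between them. The windows of Cldn10 differ in base composition, with 36% G or C and 4 CpG at the first start and 72% and 27 CpG at the second. The deposited values give 1 number per gene, so the transcripts from these starts were not separated. Windows were found for 8 of the 10 members (13 windows). The E-box letters were in 6 of the 13 windows, of Cldn3, Cldn4, Cldn6, Cldn7 and Ocln, and in 20.2% of all 32851 windows of this length. The GC box letters were in 10 of the 13 and in 35.7% of all windows. The windows of Cldn12 overlap each other, as do those of Ocln, so the same letters can be counted more than once. A match is a description of the letters and not a site of binding.

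Across the 20 libraries the 7 measured claudins fell into those high in the spheres and those high in the gland. Cldn1 and Cldn7 were highest in the spheres, and Cldn8 and Cldn10 in the gland. Cldn3 was high in both, Cldn12 differed least between group means, and Cldn23 was high in some of the sphere libraries. The plot of every library shows these levels.

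**Figure D1:**
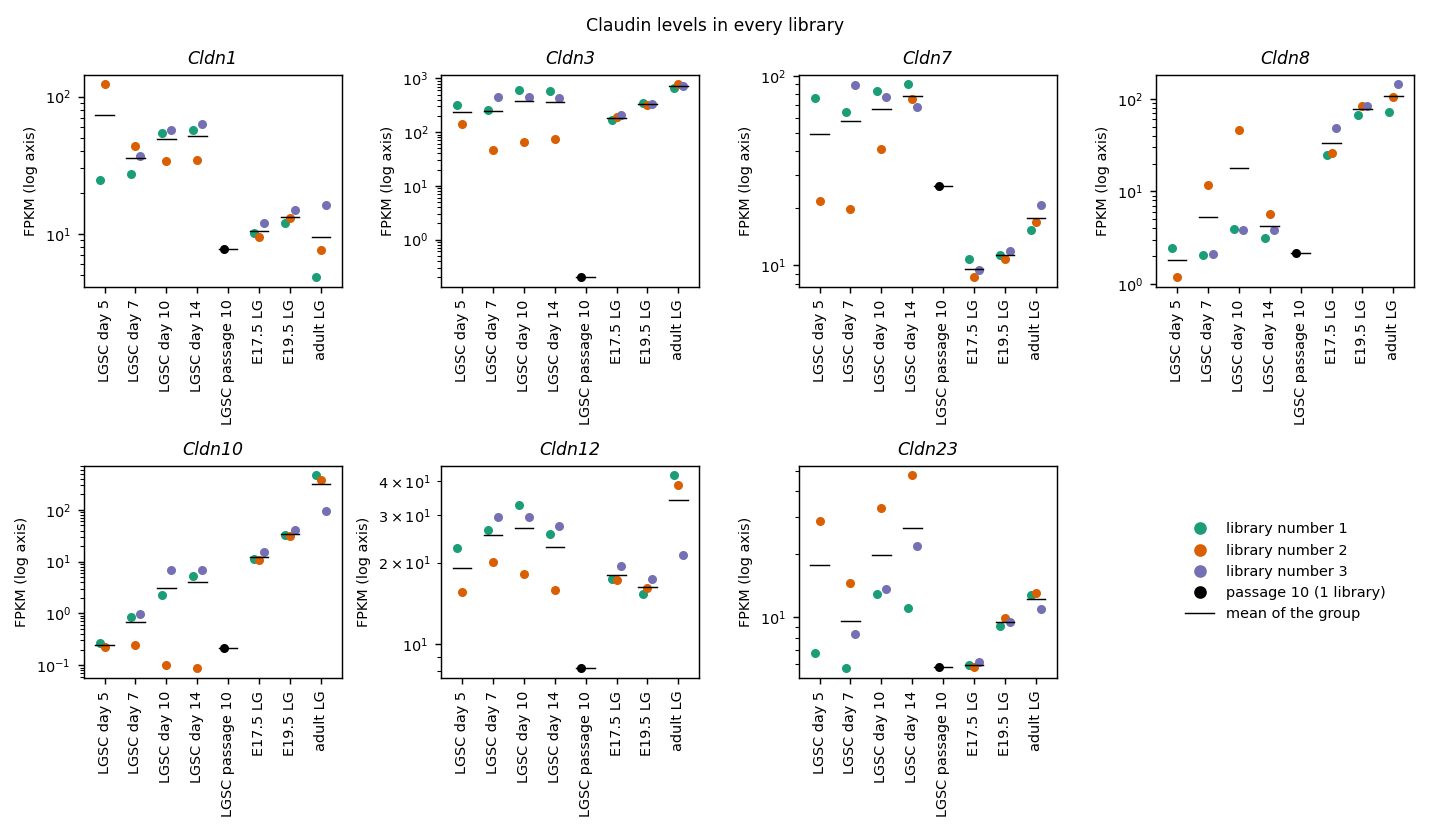
FPKM of the 7 measured claudins in each library on a log axis, by group, with points coloured by library number and a line at the group mean. Cldn10 spans 0.0867 FPKM in a day 14 sphere library to 463 FPKM in an adult LG library, while Cldn12 stays between 15.3 and 41.9 FPKM in the passage 2 and gland libraries.

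Cldn10, which forms paracellular ion channels, separated the gland stages most widely. Its level was 11.4, 10.5 and 15.6 FPKM at E17.5 and 32.8, 31.6 and 40.4 FPKM at E19.5. In adult LG it was 463, 381 and 97.4 FPKM. The 3 stages did not overlap, and adult library 3 was well below the other 2. On the log2(FPKM + 1) scale, which understates the change of low genes, Cldn10 was 19.4-fold lower at E17.5 than in adult LG (log2 fold change -4.28 ± 0.51 SE, adjusted p = 0.000179, limma) and 7.25-fold lower at E19.5 (-2.86 ± 0.51, adjusted p = 0.00177, limma). Without adult libraries 1 and 2 the log2 fold changes were -2.88 and -1.46. The rise from E17.5 to E19.5 (1.42 ± 0.51) did not pass the test (adjusted p = 0.230), although it passed without adult library 3 (adjusted p = 0.00514).

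Cldn3, a sealing claudin, was 165, 188 and 206 FPKM at E17.5 and 350, 320 and 327 FPKM at E19.5. In adult LG it was 666, 778 and 712 FPKM. Every E19.5 library was above every E17.5 library and below every adult library. It was 3.85-fold lower at E17.5 than in the adult (log2 fold change -1.94 ± 0.14, adjusted p = 1.2e-05) and 2.16-fold lower at E19.5 (-1.11 ± 0.14, adjusted p = 0.000275). The step from E17.5 to E19.5 was 1.78-fold (0.83 ± 0.14, adjusted p = 0.0296). That step lost its call when any 1 of the 6 embryonic libraries was left out, with log2 fold changes of 0.75 to 0.91 over all 9 left-out libraries and adjusted p up to 0.162.

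Cldn8, which forms an anion path together with Cldn4 in kidney epithelium, was 25.0, 25.9 and 48.0 FPKM at E17.5. It was 67.3, 82.9 and 83.9 FPKM at E19.5 and 72.7, 104 and 144 FPKM in adult LG. The E17.5 libraries lay below all others, while the E19.5 and adult ranges overlapped. Cldn8 was 3.20-fold lower at E17.5 than in the adult (log2 fold change -1.68 ± 0.31, adjusted p = 0.00194). The difference at E19.5 was -0.40 with a 95% interval of -1.11 to 0.31 and did not pass (adjusted p = 0.301).

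Of the members at lower levels, Cldn7, a sealing claudin also found on the basolateral membrane, was 8.68 to 10.8 FPKM at E17.5, 10.9 to 11.8 at E19.5 and 15.3 to 20.9 in adult LG. Cldn23, a less studied claudin, was 5.78 to 6.15, 9.16 to 9.93 and 10.9 to 13.1 FPKM in the same order. Neither overlapped between stages. Cldn12, a claudin without the usual PDZ-binding tail, was 17.3 to 19.4, 15.3 to 17.4 and 21.4 to 41.9 FPKM, with its lowest adult value in adult library 3. Cldn1, which seals the epidermal barrier, was 9.55 to 12.0, 11.9 to 15.0 and 4.85 to 16.1 FPKM, and the adult range held both embryonic ones.

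At E17.5, 6 of the 7 measured claudins were lower than in adult LG and none was higher, where 54.0% of 18578 genes were called and 24.9% were lower. The same 6 lay below every adult library, as did 27.2% of all genes. Besides Cldn3, Cldn8 and Cldn10, these were Cldn7 (log2 fold change -0.81, adjusted p = 0.00193), Cldn12 (-0.82, adjusted p = 0.0172) and Cldn23 (-0.93, adjusted p = 0.0003). Cldn1 differed by 0.28 and did not pass (adjusted p = 0.518). The median log2 fold change was -0.93 over the 7 claudins and 0.05 over all genes. At E19.5, 5 of 7 were lower (54.2% of all genes were called, 23.9% lower), with Cldn7 at -0.59 (adjusted p = 0.00999), Cldn12 at -0.96 (adjusted p = 0.00832) and Cldn23 at -0.33 (adjusted p = 0.0474). These 5 lay below every adult library, as did 25.8% of all genes. Between E17.5 and E19.5, Cldn3 alone of the 7 was called (1.74% of all genes were called, 1.11% higher). Cldn3, Cldn7, Cldn8, Cldn10 and Cldn23 had every E19.5 library above every E17.5 library, as did 19.8% of all genes, while Cldn23 (0.60, adjusted p = 0.0546) and Cldn8 (1.27, adjusted p = 0.0900) did not pass.

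**Figure D2:**
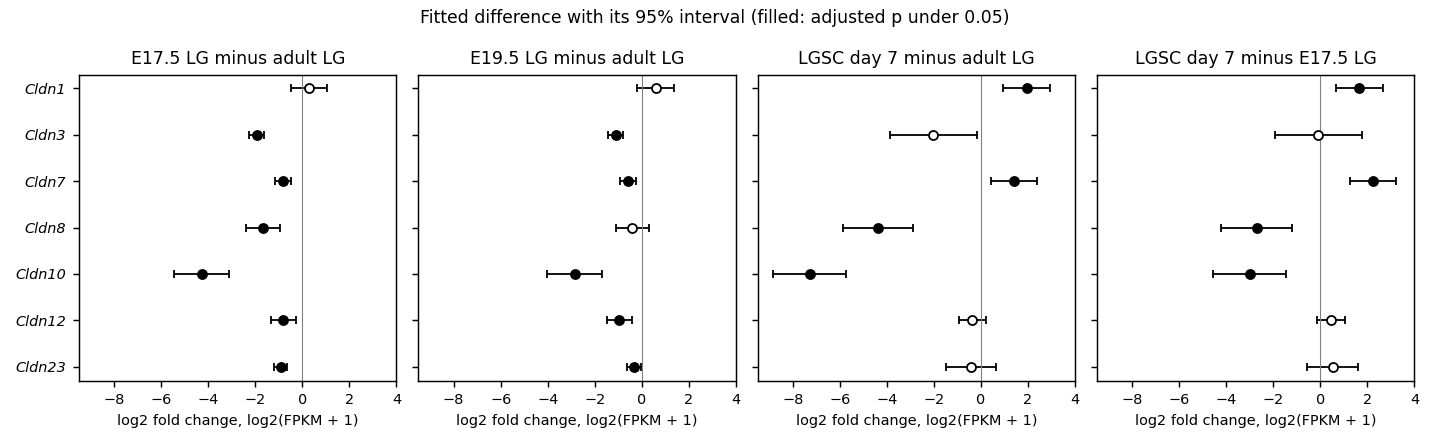
Fitted log2 fold changes of the 7 measured claudins on the log2(FPKM + 1) scale with 95% intervals, for 4 comparisons, with filled points where the adjusted p is under 0.05. On the deposited scale Cldn10 has the largest difference in all 4 comparisons, from -2.86 to -7.29, and scaling to recovered reads left its direction in each.

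Several of these calls rested on few libraries. Cldn12 at E17.5 lost its call without E17.5 library 1 (adjusted p = 0.0540), E17.5 library 2 (0.0552), adult library 1 (0.0501) or adult library 2 (0.0592), and without adult libraries 1 and 2 its log2 fold change was -0.23. Cldn23 at E19.5 kept its call in 1 of 9 fits with a library left out, with adjusted p up to 0.126, and was -0.18 without adult libraries 1 and 2. Cldn1 passed without adult library 3, at 0.70 for E17.5 (adjusted p = 0.0112) and 1.0095 for E19.5 (adjusted p = 0.00195). It turned to -0.57 and -0.26 without adult libraries 1 and 2.

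The scale of the tables mattered for the gland comparisons. In adult libraries 1 and 2 the recovered reads were 2.67 and 2.57 times the library size by which the deposited values had been divided. In all other libraries this ratio was 0.83 to 1.13. The deposited values of adult libraries 1 and 2 are therefore high relative to their recovered reads. When values were scaled to the recovered reads, the median of all genes moved from 0.05 to 0.64 at E17.5 and from 0.09 to 0.58 at E19.5. The calls at E17.5 went from 5405 higher and 4634 lower to 8450 higher and 1913 lower. On that scale Cldn3 (-0.93, adjusted p = 0.0287) and Cldn10 (-3.27) were lower at E17.5 and Cldn10 (-1.95) at E19.5, whereas Cldn7 (0.11 and 0.23) turned at both ages, Cldn12 (0.16) at E17.5, and Cldn8 (0.49) and Cldn23 (0.47) at E19.5. Relative to the median of all genes, the 6 claudins other than Cldn1 were lower at both ages on either scale, by -0.48 to -3.91 at E17.5 and by -0.10 to -2.54 at E19.5 on the recovered-read scale.

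The summed epithelial markers differed between stages, at 437 to 610 FPKM at E17.5, 916 to 1133 at E19.5 and 1427 to 2387 in adult LG. A few members carried these sums. Krt18 was 196 to 294 FPKM at E17.5, 594 to 803 at E19.5 and 636 to 938 in adult LG, and Prom2, a membrane protein gene, was at most 13.8 FPKM in the embryonic glands and 111 to 1284 FPKM in the adult ones. Without Prom2 the adult sum was 1103 to 1316 FPKM and overlapped that of E19.5 (904 to 1123). Per 100 FPKM of these markers, Cldn3 was 33.8 to 41.3 at E17.5, 28.9 to 38.2 at E19.5 and 27.9 to 49.9 in adult LG, and the 3 ranges overlapped. That overlap rested on Prom2, a setting tried after seeing the data, since without it Cldn3 was 34.5 to 42.2, 29.1 to 38.7 and 54.1 to 62.3, with every adult library above the embryonic ones. Cldn10 on the same measure was 2.31 to 2.60, 3.10 to 3.58 and 6.82 to 19.4, with no overlap (2.37 to 2.67, 3.14 to 3.62 and 7.40 to 42.0 without Prom2). Cldn8 was 5.68 to 7.86, 7.35 to 8.13 and 3.04 to 10.1, with overlap. Cdh1 alone, a denominator chosen after its values were seen, was 132 to 178, 147 to 164 and 121 to 146 FPKM. Per 100 FPKM of Cdh1, Cldn3 was 116 to 133, 199 to 222 and 487 to 551, and Cldn10 was 7.47 to 8.79, 19.7 to 27.5 and 66.6 to 381. The order of the stages for Cldn10 held for all 3 denominators. For Cldn3, adult LG lay above both embryonic ages per Cdh1 and per the sum without Prom2, while E19.5 lay above E17.5 only per Cdh1. The part of stromal content in the gland differences was not tested.

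Day 7 spheres differed from adult LG in the levels of 4 of the 7 claudins. At day 7 Cldn1 was 27.4, 43.8 and 36.8 FPKM and Cldn7 was 64.4, 19.8 and 89.1 FPKM. Cldn8 was 2.06, 11.8 and 2.09 FPKM and Cldn10 was 0.83, 0.25 and 0.99 FPKM. All 3 sphere libraries were above adult LG for Cldn1 and below it for Cldn8 and Cldn10, and for Cldn7 library 2 fell within the adult range. Of the 7 claudins, 2 were higher and 2 lower in day 7 spheres than in adult LG, where 47.4% of 18288 genes were called, 20.8% higher and 26.5% lower. Cldn1 was 3.83-fold higher (log2 fold change 1.94 ± 0.47, adjusted p = 0.00275) and Cldn7 2.67-fold higher (1.42 ± 0.46, adjusted p = 0.0190). Cldn8 was 21.0-fold lower (-4.39 ± 0.70, adjusted p = 8.61e-05) and Cldn10 156-fold lower (-7.29 ± 0.74, adjusted p = 6.29e-07). Scaled to recovered reads, where the median of all genes was 0.54, these 4 log2 fold changes were 2.86 for Cldn1, 2.46 for Cldn7, -3.33 for Cldn8 and -6.25 for Cldn10, and each passed (adjusted p up to 0.00172).

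Cldn3 in day 7 spheres was 261, 45.5 and 441 FPKM, all below the adult libraries. Its difference from adult LG, -2.04 ± 0.87, did not pass (adjusted p = 0.0664). It passed with the library number as a block (adjusted p = 0.0211), although the numbers did not pair these libraries with adult LG (correlation -0.02 to 0.03). Scaled to recovered reads it was -0.91 (adjusted p = 0.417). Without the sphere libraries numbered 2 it was -1.08 ± 0.22 (adjusted p = 0.00191), and Cldn23 then passed as well (-0.74, adjusted p = 0.0193). On the deposited scale, Cldn3 also passed without day 7 library 3 (-2.70, adjusted p = 0.0297), day 10 library 2 (0.0320) or day 14 library 2 (0.0395). Cldn12 differed by -0.37 (95% interval -0.94 to 0.21, adjusted p = 0.285), passed without adult library 3 (-0.66, adjusted p = 0.0433) and turned to 0.72 (adjusted p = 0.0362) when scaled to recovered reads. Cldn23 differed by -0.41 (95% interval -1.48 to 0.65, adjusted p = 0.528) and turned to 0.59 on that scale.

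With 1 library left out, Cldn7 against adult LG ranged from 0.99 to 2.04. Its call was lost without day 7 library 1 (adjusted p = 0.0731), day 7 library 3 (0.109) or adult library 1 (0.0586). Without adult libraries 1 and 2, Cldn1 was 1.09 and Cldn7 1.18. Cldn8 and Cldn10 kept their calls in all 20 fits with a library left out.

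Against E17.5 LG, the same 4 claudins were called, where 36.3% of genes were called, 13.7% higher and 22.6% lower. The 2 comparisons share the day 7 libraries. Cldn1 was higher by 1.66 (adjusted p = 0.0103) and Cldn7 by 2.23 (adjusted p = 0.00116), while Cldn8 was at -2.71 (adjusted p = 0.00621) and Cldn10 at -3.01 (adjusted p = 0.00419). Cldn12 (0.45, adjusted p = 0.218) and Cldn23 (0.52, adjusted p = 0.465) did not pass. Cldn3 differed by -0.09 with a wide 95% interval of -1.95 to 1.76, turned to 0.02 when scaled to recovered reads and was 0.86 (adjusted p = 0.00910) without the libraries numbered 2.

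The spheres also held more epithelial marker transcript than E17.5 LG, and its part in the levels of Cldn1 and Cldn7 was not tested. Per 100 FPKM of epithelial markers, Cldn7 was 1.56 to 3.58 in day 7 spheres and 1.55 to 2.46 at E17.5, with overlap, and 0.64 to 1.47 in adult LG, without. With Prom2 left out of the sum, the lowest day 7 library (1.61) was just above the highest adult one (1.59). Cldn1 was 1.44 to 3.44 in day 7 spheres, 1.97 to 2.32 at E17.5 and 0.20 to 1.13 in adult LG. Cldn8 (0.0838 to 0.929) and Cldn10 (0.0194 to 0.0437) stayed below every gland library on this measure. Per 100 FPKM of Cdh1, Cldn1 was 4.01 to 9.85 in day 7 spheres, within the adult range of 3.995 to 11.02. Cldn7 was 4.46 to 12.39 in day 7 spheres and 12.04 to 14.32 in adult LG, with sphere libraries 1 and 2 below every adult library. The higher levels of Cldn1 and Cldn7 than in adult LG thus did not hold per Cdh1. At E17.5 they were 6.76 to 7.68 and 5.31 to 8.15, within the day 7 ranges.

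Over the culture days no claudin of the 7 passed a test for a slope, where 2.14% of 15584 genes did. Day 5 spheres had 0.27 and 0.23 FPKM of Cldn10. Day 10 spheres had 2.22, 0.10 and 7.00 FPKM. In day 14 spheres it was 5.37, 0.087 and 6.92 FPKM. It was higher with each later sample in library number 1, while in number 2 it was under 0.25 FPKM on all days. The slope was 0.18 ± 0.08 log2 units per day (adjusted p = 0.270). Without the libraries numbered 2 it was 0.28 ± 0.05 (adjusted p = 0.0428), and on recovered reads with the library number as a block (limma-voom) it was 0.32 (adjusted p = 0.0218).

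**Figure D3:**
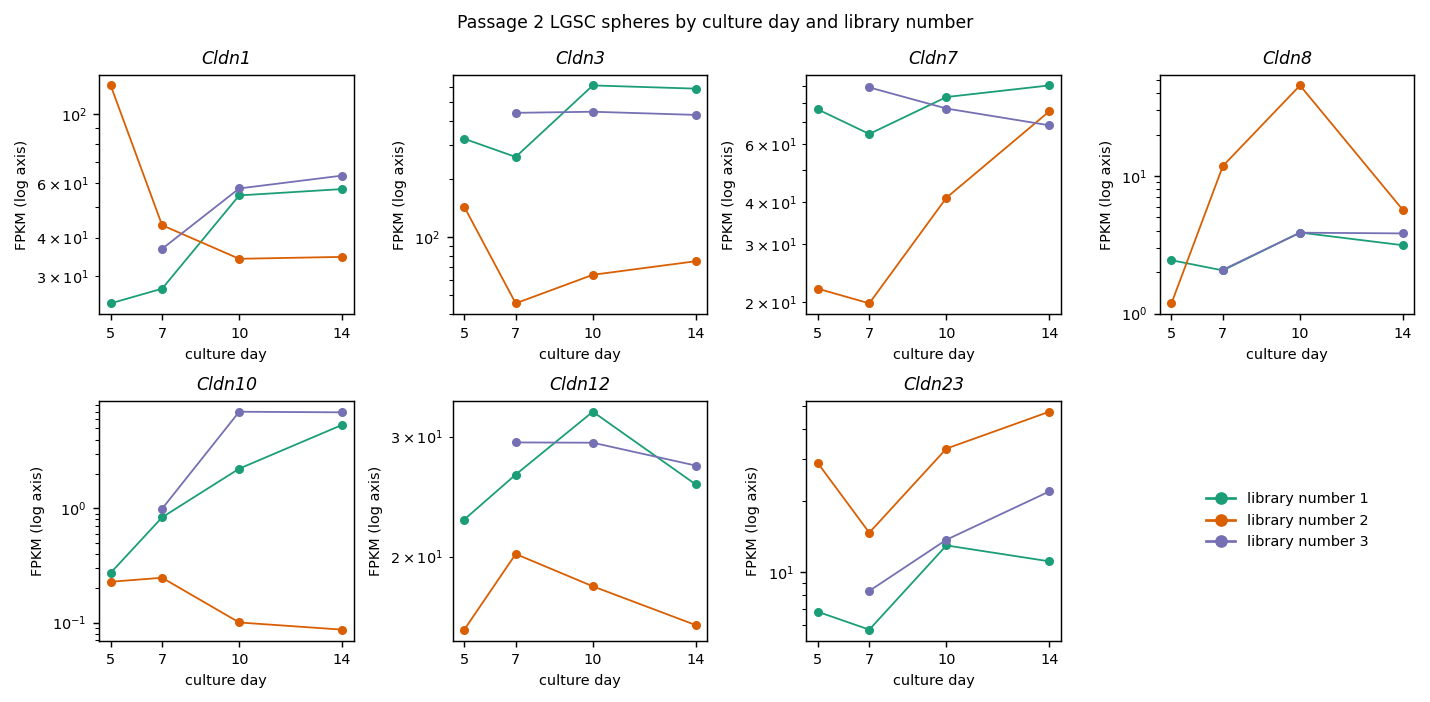
FPKM (log axis) of the 7 measured claudins in passage 2 LGSC spheres by culture day, with 1 line per library number. Number 2 lies below the others on every day for Cldn3 (45.5 to 144 FPKM against 261 to 611), Cldn10 and Cldn12. For Cldn10, number 2 rests on 2 to 5 reads, and at day 5 on 4 reads against 6.

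The sphere libraries numbered 2 lay apart from the others on 3 of the 7 claudins, where 10.7% of all genes did not overlap. Cldn3 was 45.5 to 144 FPKM in the 4 libraries numbered 2 and 261 to 611 FPKM in the other 7. Cldn10 was 0.0867 to 0.247 against 0.272 to 7.00 FPKM, and Cldn12 was 15.6 to 20.2 against 22.7 to 32.6 FPKM. The split for Cldn10 is near the floor, with 2 to 5 reads in number 2 and 6 reads in day 5 library 1. The remaining 4 measured claudins overlapped between these libraries. Cldn17, which forms anion channels and lies 53849 bases from Cldn8, was 1.13, 3.60, 12.5 and 2.01 FPKM at days 5, 7, 10 and 14 in number 2 and listed at 0 in the other 7, and the day 10 library with the highest Cldn17 also had the highest Cldn8 of the spheres (45.5 FPKM). These sets were formed after the values were seen and were not tested.

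Same-numbered libraries of different days deviated together (correlation across genes 0.26 to 0.72 over 15 pairs), so the number was also used as a block. With the block, 783 genes (5.02%) passed for the slope and none of the 7 claudins, with Cldn23 nearest (0.12 per day, adjusted p = 0.0612). Number 1 had 6.81, 5.73, 12.97 and 11.1 FPKM of Cldn23 over the 4 days. Number 2 had 28.8, 14.7, 33.2 and 47.4 FPKM, and number 3 had 8.34, 13.7 and 21.9 FPKM from day 7 on. It was higher at day 14 than at day 7 in all 3 numbers. From day 7 to day 14, limma called none of the 7 claudins and 0 of 15584 genes, with 1623 at an unadjusted p under 0.05. With the block 23 genes (0.148%) were called, and Cldn23 was at 1.26 (adjusted p = 0.0673). With limma-voom and the block 217 of 11965 genes were called, among them Cldn23 (1.39, adjusted p = 0.0168). Limma-voom without the block called 0.

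Cldn1 and Cldn7 also differed in course between numbers. Cldn1 was 123.3 FPKM in day 5 library 2, the highest value of any library, and 24.6 FPKM in day 5 library 1. Cldn7 was 22.0, 19.8, 41.3 and 75.4 FPKM over the days in number 2 and 64.4 to 90.3 FPKM in numbers 1 and 3. Their slopes were 0.02 and 0.10 per day and did not pass (adjusted p = 0.899 and 0.385), and that of Cldn1 turned to -0.02 without day 5 library 1 and to -0.0024 without day 14 library 3.

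Of the acinar marker list (9 genes), Mucl2 and Scgb2b2 were looked at by value beside Cldn10. Mucl2 was 171250 to 807360 FPKM in adult LG and 45.7 and 40.4 FPKM in sphere libraries 3 of days 10 and 14, which had 7.00 and 6.92 FPKM of Cldn10. The sphere library with the most Mucl2 was day 5 library 2 (58.3 FPKM), where Cldn10 was 0.23 FPKM. Day 14 library 1 had 5.37 FPKM of Cldn10 with Mucl2 and Scgb2b2 both listed at 0. Elsewhere in the list, Aqp5 was at 0 in all spheres of days 5 and 7 and Ltf in those of day 5. Both were above 0 in some sphere library at days 10 and 14. Bhlha15 and Lcn11 were listed at 0 in all 20 libraries, adult LG among them.

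The 3 members not tested were almost absent from the 20 libraries. Cldn4, a sealing claudin of many glands, had at most 3 reads (0.19 FPKM) in any library and was listed at 0 in 12 of 20. Ocln and Cldn6, a claudin of embryonic epithelia, were listed at 0 in all 20. In the passage 10 library Cldn4 was 489 FPKM (21120 reads), Ocln was 11.2 FPKM (1127 reads) and Cldn6 was 0.22 FPKM (9.1 reads). These zeros cannot be read as lack of expression. Of 5333 genes with at least 10 FPKM in passage 10 spheres, 577 (10.8%) were listed at 0 in all 20 libraries and 1388 (26.0%) had a day 7 mean under 0.01 of the passage 10 value. Krt8 and Epcam, which epithelial cells generally express, were among the genes at 0.

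Cldn3 had the opposite pattern. It was 0.20 FPKM (6 reads) at passage 10 and 45.5 to 441 FPKM in passage 2 spheres of the same culture day. It was 1 of 8 such genes among 3271 with a day 7 mean of at least 10 FPKM and the only member among them. Xist was another of the 8, at a day 7 mean of 66.5 FPKM and 0.026 FPKM at passage 10. The passage 10 library was counted against another gene list and has no replicate, so passage, processing and donor cannot be told apart for Cldn3 and Cldn4. The 6 other measured claudins were lower at passage 10 than the day 7 mean, at 7.78 FPKM for Cldn1, 26.3 for Cldn7, 2.16 for Cldn8, 0.21 for Cldn10, 8.16 for Cldn12 and 5.80 for Cldn23. Cldn7, Cldn8 and Cldn23 lay within the range of the day 7 libraries.

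**Figure D4:**
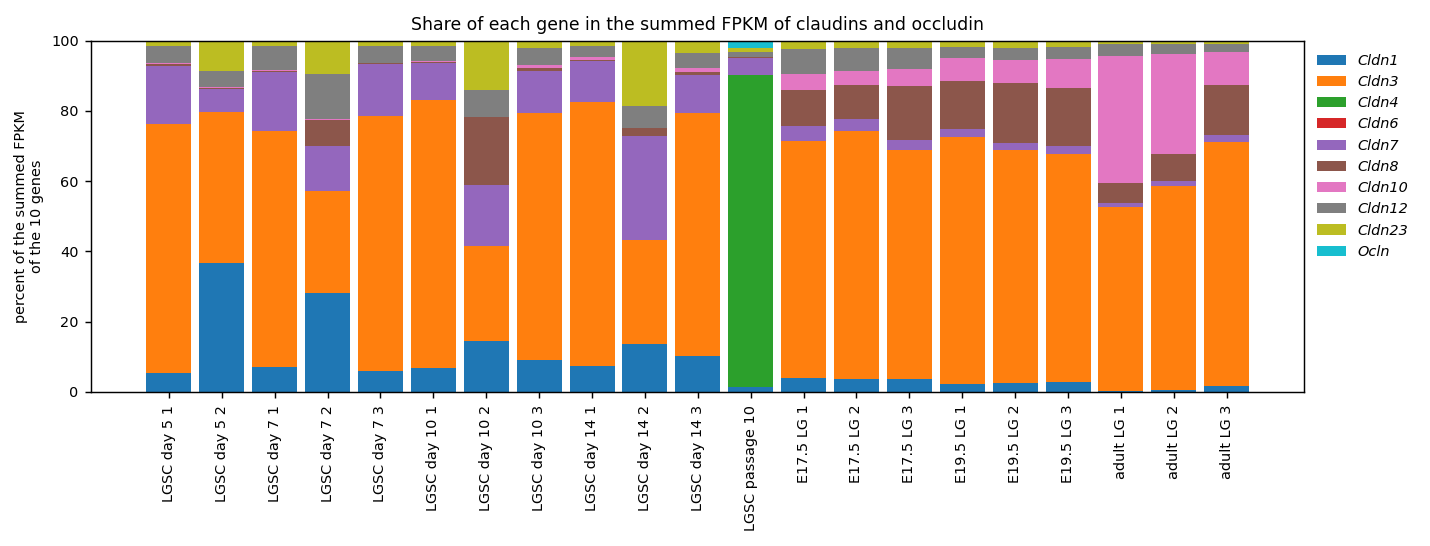
Share of each gene in the summed FPKM of the 10 genes, 1 bar per library. Cldn3 takes 52.2% to 70.7% in the gland libraries, and Cldn4 takes 88.7% in the passage 10 library.

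As a share of the summed FPKM of the 10 genes, Cldn3 took 65.1% to 70.7% at E17.5, 64.7% to 70.3% at E19.5 and 52.2% to 69.6% in adult LG. Cldn10 took 3.96% to 4.93%, 6.53% to 8.01% and 9.52% to 36.3%, and its shares did not overlap between stages. In day 7 spheres Cldn3 took 29.1% to 72.6% and Cldn7 12.7% to 16.6%. The sum itself was 246 to 317 FPKM at E17.5, 485 to 505 at E19.5, 1023 to 1339 in adult LG and 156 to 801 in the spheres. A share falls when another member rises, and in the 20 libraries Cldn4 adds at most 0.048% to these sums and Ocln nothing.

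Of 14 further claudins 6 were tested in the gland, and 4 were higher at E17.5 than in adult LG and none lower (29.1% of all genes were higher), with the largest differences for Cldn9 (1.76), Cldn15 (1.61) and Cldn11 (1.34), the last a claudin of myelin and testis. At E19.5, 5 of 6 were higher (30.3% of all genes), led by Cldn15 (2.33), Cldn5 (1.62) and Cldn11 (1.43). Scaled to recovered reads, these counts were 4 and 5 higher and none lower, where 8450 and 8054 of 17410 genes were higher. Without adult libraries 1 and 2, the E17.5 differences were 1.60 for Cldn9, 1.64 for Cldn11, 0.42 for Cldn15, 0.24 for Cldn19, -0.41 for Cldn20 and -0.86 for Cldn5. At E19.5 they were then 0.41, 1.73, 1.14, -0.15, 0.47 and 0.00075 in the same order. Adult Cldn5 was 11.4, 14.3 and 73.4 FPKM. Cldn9 was lower at E19.5 than at E17.5 (-1.18, adjusted p = 0.0160). Cldn5, the claudin of endothelium, was 37.2 to 42.5 FPKM at E17.5 and at most 0.0918 FPKM in the spheres, and it was 41.1-fold lower in day 7 spheres than at E17.5 (adjusted p = 3.98e-08). The endothelial list that holds it summed to 179 to 218 FPKM at E17.5 and at most 0.54 FPKM in the spheres.

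Of 28 other tight junction genes, 13 were tested in the gland, with 3 higher and 5 lower at E17.5 than in adult LG, which is 23.1% and 38.5% of them where 29.1% and 24.9% of all genes were called. The lower ones were led by Marveld3 (-2.63), a relative of occludin, by Crb3 (-2.53), an apical polarity protein, and by Prkcz (-1.69), a polarity kinase. The higher ones were the kinase gene Wnk4 (3.48-fold), the adhesion molecule gene Jam3 (2.66-fold) and Rab13 (1.79-fold), which acts in junction trafficking. Scaled to recovered reads, 4 were higher and 3 lower, where 8450 of 17410 genes were higher and 1913 lower, and Patj turned from -0.78 to 0.12. Without adult libraries 1 and 2, 4 were higher and 6 lower. In day 7 spheres 4 of the 13 genes were higher and 4 lower than in adult LG (20.8% and 26.5% of all genes), with Jam3 at -2.55. On the recovered-read scale 6 were higher and 1 lower, where 7943 of 17939 genes were higher and 2272 lower. Crb3 turned there from -0.86 to 0.20. Without adult libraries 1 and 2, Jam3 was at -3.38 and Crb3 at -0.33. Against E17.5 LG 6 were higher and 2 lower (13.7% and 22.6% of all genes), with Crb3 at 1.66, Prkcz at 1.57, Jam3 at -3.96 and Rab13 at -0.74. Over the culture days Magi3, a junction scaffold gene, was the 1 gene of 14 tested that passed (0.07 per day, adjusted p = 0.0378), where 2.14% of all genes passed, and it did not pass without the libraries numbered 2 (adjusted p = 0.160). Of the 28 genes, 12 were under 1 FPKM in all 20 libraries and at 5 FPKM or more at passage 10, among them Tjp3, F11r and Marveld2.

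Likeness of pattern is given as Pearson r of log2(FPKM + 1) over the 20 libraries among 13690 genes, as a description, since libraries of a group share their source. Cldn10 was most like Timd2 (0.984), Mlph and Sytl3 (both 0.980). Cldn8 was most like P2ry6 (0.938), Elf5 (0.937) and Dpp4 (0.934). Cldn1 had Ampd3 (0.958) and Kif1c (0.945), Cldn3 Clic6 (0.911) and Cd38 (0.896), and Cldn7 Gm21781 (0.961) among their 3 nearest, the others being assembled loci without a gene name. Cldn12 was nearest to Vwa8 (0.922), Ppm1h (0.912) and Tpd52l1 (0.906) and Cldn23 to Slc6a14 (0.913) and Pdzk1ip1 (0.892). Within the 7 claudins the closest pair was Cldn8 and Cldn10 (0.767), and the most opposed was Cldn1 and Cldn8 (-0.794).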

How the data were processed

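RNA of LGSC spheres and LG was sequenced from poly-A libraries (NEBNext Ultra kit). Per the submitters' processing notes, CASAVA 1.8, HISAT2 2.0.5 and featureCounts 1.5.0-p3 were used with build NCBIM37. Each library has its own table of gene values deposited by the authors, which were read as FPKM from their steps. Reads were recovered by dividing by the value of 1 read, with exon lengths from GENCODE M21, and 92.6% to 93.6% of values were whole (within 0.01, up to 1000 reads). Depth is given in the report. At 1 FPKM a short gene rests on few reads.

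Differences were tested with limma 3.58.1 (R 4.3.3) after taking log2(FPKM + 1). Genes needed a mean of 0.5 FPKM over the libraries fitted. P-values were adjusted by Benjamini-Hochberg over all genes of a fit, with a threshold of 0.05. Gland stages were fitted on 9 libraries, culture days on 11 and spheres against gland on 20. The fit was also run on simulated counts drawn independently for each library. They hold none of the library differences seen here, so that run does not bear on these calls. Figures used Python 3.11.15 and matplotlib 3.10.9.

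The members, lists and tests were chosen with earlier results of these data known. All 10 members were named in each comparison, with up to 3 rises and 3 falls of each further list and the 3 genes most alike. Library numbers paired the sphere libraries (lowest pair correlation 0.26 over 15 pairs) and not the gland libraries (-0.08 to 0.07). Nor did they pair day 7 spheres with adult LG (-0.02 to 0.03). Alternatives were a pseudocount of 0.1, no filter, a mean of 1 FPKM, the block, scaling to recovered reads, limma-voom, fewer groups or days and each library left out. Leaving out the sphere libraries numbered 2, or adult libraries 1 and 2, or Prom2 from the epithelial sum, was chosen after seeing the data. No count model was the main test because the tables hold FPKM, and limma-voom was run on recovered reads as an alternative only. Day 5 replicate 3 and passages 6 and 20 were not analysed here. Some genes of the further lists are not reported here.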

Additional observations from a re-analysis of the deposited data

How the results depend on the processing

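Of 1071 values of single claudins under other settings, 981 kept their direction and side of the threshold, 41 lost a call, 24 gained one and 25 turned. Scaled to recovered reads, 2 members were called at E17.5 and 1 at E19.5 against adult LG. Cldn7 (0.11 and 0.23), Cldn12 (0.16), Cldn8 (0.49) and Cldn23 (0.47) turned there, as did Cldn12 (0.72) and Cldn23 (0.59) for day 7 against adult and Cldn3 (0.016) against E17.5. Between E19.5 and E17.5 the count of all genes was 162 with a pseudocount of 0.1, 100 with the replicate block, 186 scaled and 2144 with 2 groups. The members called were 0 with no filter, with the replicate block or scaled, 2 at a mean of 1 FPKM or with limma-voom, and 4 with 2 groups. With no filter 163 of 39835 genes were higher and 116 lower. At a mean of 1 FPKM 192 of 14053 were higher and 91 lower, and with limma-voom 253 and 152 of 14593. Leaving out 1 library gave 50 to 1736 genes and 0 to 4 members. The slope was called for 82 genes with no filter, 783 with the replicate block, 1184 with limma-voom and the block and 0 over days 7 to 14, for 11 to 384 with a library left out, and for 2 members with limma-voom and the block and 1 without the libraries numbered 2. The limma-voom fits of the culture days held 11965 genes. Without the libraries numbered 2 the slope was rising for 142 and falling for 138 of 15261 genes. Over days 7 to 14 Cldn8 (-0.0074) and Cldn12 (-0.025) turned. Day 14 against day 7 gave 1 gene with a pseudocount of 0.1, 6 with no filter, 23 with the replicate block, 217 and 1 member with limma-voom and the block (Cldn8 -0.077), and 0 to 2 genes with a library left out. Without adult libraries 1 and 2, Cldn1 turned to -0.57 at E17.5 and -0.26 at E19.5, and Cldn12 to 0.22 for day 7 against adult. Without the libraries numbered 2, Cldn3 turned to 0.86 against E17.5. With a library left out, Cldn1 at E17.5 ranged from -0.073 (without adult library 1) to 0.70. The slope ranged from -0.021 to 0.089 for Cldn1 (turned without day 5 library 1 or day 14 library 3) and from -0.013 to 0.041 for Cldn12 (turned without day 5 library 2). For day 14 against day 7, Cldn3 ranged from -0.34 (without day 7 library 2) to 1.52, Cldn8 from -0.30 to 0.73 (turned without day 7 library 1 or 3 or day 14 library 2) and Cldn12 from -0.31 to 0.072 (turned without day 14 library 2). Cldn3 ranged from -0.76 to 0.86 against E17.5 (turned without day 7 library 2). In the gland, where numbers do not pair the libraries, the replicate block lost the calls of Cldn23 at E19.5 (adjusted p = 0.0960) and Cldn3 between embryonic ages (0.104). Apart from these and the block results given above, it changed no call of a member. The causes of these changes were not tested. Depth limits values under 0.5 FPKM, which rest on few reads, and 2 or 3 libraries per group limit every test.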
